A study of Caenorhabditis elegans with 12 samples.

Results

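The genes described here encode the enzymes that activate fatty acids and break them down by beta-oxidation in the nematode Caenorhabditis elegans. They were taken by their WormBase symbols. The acs genes encode acyl-CoA synthetases, the cpt genes carnitine palmitoyl transferases, the acdh genes acyl-CoA dehydrogenases, the ech genes enoyl-CoA hydratases and related enzymes, and the acox genes acyl-CoA oxidases, and maoc-1, dhs-28 and daf-22 encode later peroxisomal enzymes. The genes acdh-1 and ech-6 carry symbols of this kind but were left out by the rule. Of 59 listed symbols, 56 reached a normalized value of 10 in 3 or more of the 12 libraries and were tested, among 12908 features tested and 17430 listed. The 56 were 20 acs, 6 cpt, 11 acdh, 9 ech and 7 acox genes and the 3 later peroxisomal genes.

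A fatty acid has to be joined to coenzyme A by an acyl-CoA synthetase before it can be stored, built into membranes or oxidized. Long chains enter mitochondria as carnitine esters, which the carnitine palmitoyl transferases make and take apart. In mitochondria an acyl-CoA dehydrogenase opens each round of beta-oxidation, and a hydratase, a hydroxyacyl-CoA dehydrogenase and a thiolase follow. In peroxisomes an acyl-CoA oxidase takes the place of the dehydrogenase, and in C. elegans this route also shortens the side chains of ascarosides, the small molecules that worms use as pheromones. The worm's intestine stores and oxidizes much of its fat, and the nuclear receptor NHR-49 is a known activator of several of these genes.

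RNA sequencing was done on total RNA from whole wild-type N2 worms that the labels call adult, in 4 conditions of 3 libraries each. Worms labelled stt-3 RNAi (RNAi bacteria against stt-3, a catalytic subunit of the oligosaccharyl transferase complex) and control RNAi worms were each grown to the L4 stage on E. coli. They were then moved either to PA14, a pathogenic strain of Pseudomonas aeruginosa, or to fresh E. coli of the same RNAi, and were harvested 12 h later. Nothing in the labels says that the 3 libraries of a condition came from separate cultures, so the p-values measure only the spread between these libraries, which may be technical. The values are the study's normalized gene values rounded to whole numbers. They are not read counts, the read depth behind them is unknown, and no counting interval can be given.

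The summed values ran from 5530614 to 8627187 per library. The listed values of stt-3 itself did not check the label, at 461 to 551 in the 6 libraries labelled stt-3 RNAi and 367 to 434 in the 6 control RNAi libraries, while ostd-1, another subunit of the complex, was at 98 to 138 in the libraries labelled stt-3 RNAi and 624 to 823 in the control RNAi libraries. Replicate 3 of labelled stt-3 RNAi on E. coli stood apart from its fellows. On the main axis of variation over all tested features, which held 73.4% of the variance, it was at 38.2 and its fellows were at 74.1 and 89.8, while the 6 PA14 libraries were between -92.6 and -60.3 and the 3 control RNAi E. coli libraries between 65.6 and 106. Defining markers of intestine, muscle, neurons, epidermis, germ line, sperm and oocytes were each listed above 0 in some library. The summed value of the 30 major sperm protein (msp) genes was 4700 to 11292 in the PA14 libraries and 68281 to 168502 in the E. coli libraries, and all 30 were called lower on PA14 in both RNAi groups. The 3 epidermis markers went different ways on PA14 in both RNAi groups, with the cuticle collagen gene col-19 called lower, the collagen gene dpy-7 called higher and elt-3 not called, and their sum, nearly all of it col-19, was 2421 to 4963 in the PA14 libraries and 13596 to 29783 in the E. coli libraries.

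Exposure to PA14 lowered a set of acyl-CoA synthetase, dehydrogenase and oxidase genes and raised cpt-4 and ech-9 in both RNAi groups. However, cpt-4 and ech-9 met the value minimum only with the PA14 libraries. Of the lowered genes, acs-6, acs-15, acs-18 and acdh-5 met it only with the E. coli libraries. The directions of these changes are therefore partly set by the choice of genes. A gene was called where its fold change was over 2 and its adjusted p under 0.05 (limma on log2(value + 1), with Benjamini-Hochberg adjustment over 12908 features). PA14 raised 3 and lowered 12 of the 56 genes in worms labelled stt-3 RNAi, beside 8.30% of all tested features called higher and 14% called lower. The median log2 fold change of the 56 was -0.13, beside 0.07 for all features tested. In control RNAi worms 6 of them were called higher and 10 lower, near the shares of all tested features called higher (10.7%) and lower (15.9%). The median there was -0.03, beside 0.04 for all features. Without replicate 3 of labelled stt-3 RNAi on E. coli the counts in worms labelled stt-3 RNAi were 6 higher and 13 lower. Markers of other tissues moved on PA14 as well. The 3 body wall muscle markers summed to 309 to 563 in the PA14 libraries and 705 to 1847 in the E. coli libraries, with 2 of the 3 (unc-15 and unc-54) called lower in both RNAi groups. Of the 5 intestine markers, ifb-2 was called lower on PA14 in worms labelled stt-3 RNAi, where the sums were 17428 to 21987 on PA14 and 18613 to 21661 on E. coli, and ges-1 was called higher in control RNAi worms, where the sums were 27821 to 47123 on PA14 and 22491 to 26095 on E. coli. Most of each intestine sum was the value of vit-6, a vitellogenin gene. The part of these tissues in the PA14 changes of the 56 genes was not tested. Called lower in both groups were 10 genes, 10 of the 12 in worms labelled stt-3 RNAi and all 10 in control RNAi worms, and cpt-4 and ech-9 were called higher in both, 2 of 3 and 2 of 6 in the same order. The share of all tested features called in both groups was not counted, so this overlap is not a trait of these genes. Changes under 2-fold with an adjusted p under 0.05 were seen for 6 higher and 5 lower genes in worms labelled stt-3 RNAi and for 9 higher and 8 lower genes in control RNAi worms, and 30 and 23 genes in the same order did not pass the p threshold. With the called genes, 46.4% of the 56 passed it in worms labelled stt-3 RNAi, beside 43.7% of all tested features. In control RNAi worms 58.9% of the 56 passed it, beside 51.6% of all tested features. The 2 comparisons share no library, only the estimate of spread. In quantile-normalized values the control RNAi split was 8 higher and 8 lower in place of 6 and 10, with acs-3 (1.13) and acs-21 (1.2) gained as higher and acs-2 and acox-1.4 lost as lower. The split over all tested features moved the same way, with 1751 higher and 1856 lower in quantile-normalized values in place of 1381 and 2047.

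**Figure D1:**
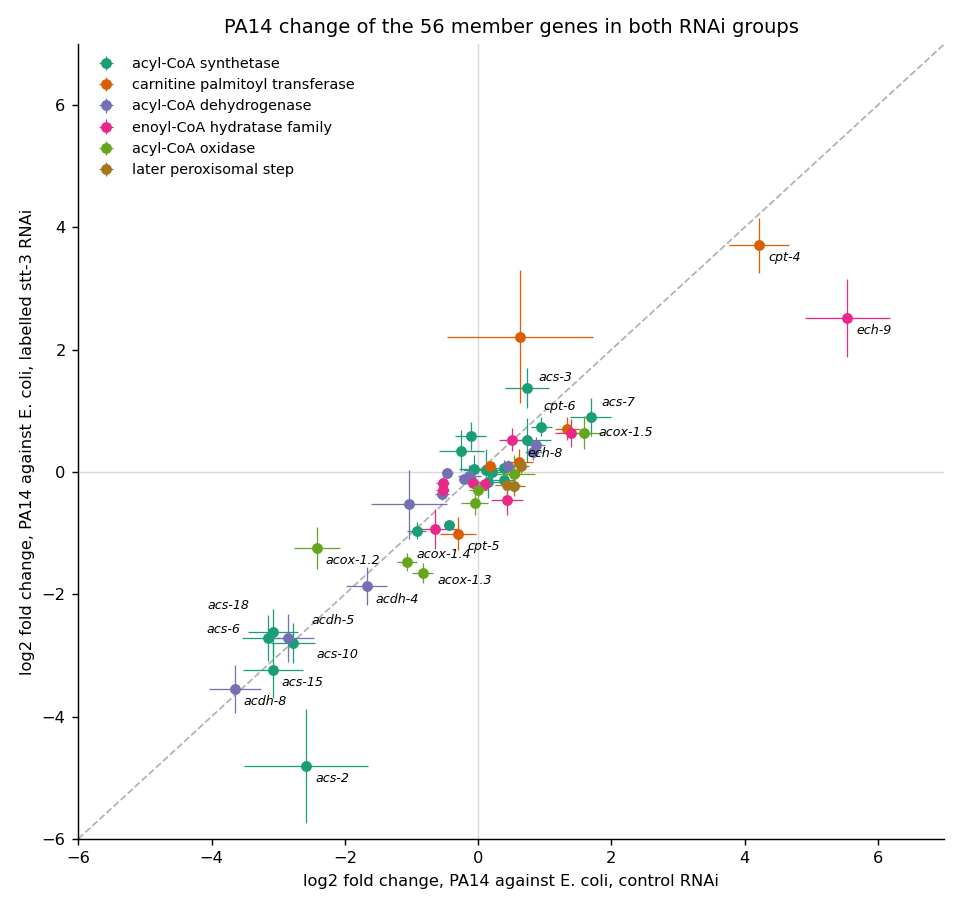
Each point is 1 of the 56 genes, with its log2 fold change of PA14 against E. coli in control RNAi worms on the horizontal axis, the same in worms labelled stt-3 RNAi on the vertical axis, and bars of 1 standard error; the dashed line marks equal change, colours mark the enzyme class, and genes called in either group are named. The genes acdh-8, acs-15 and acs-2 lie low on both axes, cpt-4 and ech-9 lie high on both, and most of the others sit near 0.

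At the activation step, the gene acs-2 encodes an acyl-CoA synthetase and is a known NHR-49 target that rises on fasting. Its values, here and below in the order of replicates 1 to 3, were 5, 9 and 10 in labelled stt-3 RNAi worms on PA14 and 63, 284 and 799 in labelled stt-3 RNAi worms on E. coli. Control RNAi worms had acs-2 values of 2, 11 and 12 on PA14 and 15, 76 and 81 on E. coli. The PA14 and E. coli values did not overlap in either RNAi group, but the E. coli values themselves spread widely. The log2 fold change of acs-2 on PA14 was -4.81 in worms labelled stt-3 RNAi (standard error 0.93, limma adjusted p = 0.0018) and -2.58 in control RNAi worms (standard error 0.93, adjusted p = 0.0369). The control RNAi call of acs-2 was lost when control RNAi PA14 replicate 1 or control RNAi E. coli replicate 2 or 3 was left out (-1.9, -2.22 and -2.18 in that order), with a log2 fold change between -3.36 and -1.83 over the alternatives tried.

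The other lowered synthetases were acs-6, acs-10, acs-15 and acs-18. The values of acs-10 were 10, 14 and 11 in labelled stt-3 RNAi worms on PA14 and 101, 107 and 60 on E. coli, and 7, 13 and 12 in control RNAi worms on PA14 and 64, 123 and 57 on E. coli. For acs-6 the values were 7, 7 and 5 on PA14 and 50, 61 and 34 on E. coli in worms labelled stt-3 RNAi, and 2, 5 and 5 on PA14 and 35, 70 and 29 on E. coli in control RNAi worms. All 4 genes were low on PA14 in every library and did not overlap with their E. coli values. The share of all tested features without overlap was not counted. Since acs-6, acs-15 and acs-18 were below 10 in every PA14 library, they met the value minimum only through the E. coli libraries. Their low PA14 values are therefore partly set by the choice of genes. Values of acs-18 were 6, 9 and 7 on PA14 and 58, 57 and 37 on E. coli in worms labelled stt-3 RNAi, and 2, 6 and 4 on PA14 and 34, 66 and 26 on E. coli in control RNAi worms. Values of acs-15 were 1 in each labelled stt-3 RNAi library on PA14 and 21, 21 and 13 on E. coli. The control RNAi values of acs-15 were 0, 2 and 1 on PA14 and 13, 25 and 9 on E. coli. Their log2 fold changes lay between -3.24 (acs-15) and -2.62 (acs-18) in worms labelled stt-3 RNAi and between -3.16 (acs-6) and -2.78 (acs-10) in control RNAi worms, with adjusted p of at most 0.000335 in all 8 tests. With values this close to 0 on PA14 the size of the change depended on the pseudocount, and for acs-15 in control RNAi worms it lay between -3.59 and -1.34 over the alternatives.

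Among the raised synthetases, acs-7, which is known to act in making modified ascarosides, was at 175, 158 and 146 in labelled stt-3 RNAi worms on PA14 and 60, 65 and 157 on E. coli. Control RNAi worms had values of 188, 185 and 207 on PA14 and 59, 46 and 76 on E. coli. The replicate 3 E. coli library labelled stt-3 RNAi overlapped the PA14 values of that group and the gene was not called there (0.90, adjusted p = 0.0363), but without that library the change was 1.34 (adjusted p = 0.000255). The control RNAi groups were far apart (log2 fold change 1.69, standard error 0.31, adjusted p = 0.000986). The gene acs-3 was called higher on PA14 in worms labelled stt-3 RNAi, at 20, 18 and 17 on PA14 and 4, 5 and 13 on E. coli (1.37, standard error 0.33, adjusted p = 0.0064). The gene acs-3 in control RNAi worms was at 12, 15 and 12 on PA14 and 7, 8 and 7 on E. coli, a difference that did not pass the threshold (0.74, adjusted p = 0.0795). Without the PA14 libraries acs-3 would not have met the value minimum.

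Of the synthetases named whatever their values, acs-19, a homologue of cytosolic acetyl-CoA synthetase, was lower on PA14 by less than 2-fold. It was at 565, 594 and 624 on PA14 and 1036, 1163 and 1050 on E. coli in worms labelled stt-3 RNAi (log2 fold change -0.86, adjusted p = 6.95e-05), and at 718, 744 and 776 on PA14 and 982, 1069 and 962 on E. coli in control RNAi worms (-0.43, adjusted p = 0.000608). The groups of acs-19 did not overlap in either comparison. The genes acs-20 and acs-22 encode relatives of fatty acid transport proteins that are known to act in the surface barrier of the worm. The log2 fold change of acs-20 was 0.05 in worms labelled stt-3 RNAi and -0.06 in control RNAi worms, and that of acs-22 was 0.52 and 0.73 in the same order, none past the p threshold. The gene acs-5 was lower on PA14 just under the 2-fold limit, at -0.96 in worms labelled stt-3 RNAi (adjusted p = 0.000359) and -0.92 in control RNAi worms (adjusted p = 0.000336). It was called in worms labelled stt-3 RNAi without PA14 replicate 1 (-1.01) or E. coli replicate 1 (-1.1) of that group, and in control RNAi worms without E. coli replicate 1 (-1.0). The gene acs-21 was higher on PA14 under that limit, at 0.74 in worms labelled stt-3 RNAi (adjusted p = 0.003) and 0.95 in control RNAi worms (adjusted p = 0.000491), and it was called in control RNAi worms without PA14 replicate 2 (1.06) or E. coli replicate 3 (1.01). Without replicate 3 of labelled stt-3 RNAi on E. coli, acs-22 was called higher on PA14 in worms labelled stt-3 RNAi (1.03, adjusted p = 0.00242).

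Entry into mitochondria showed its clearest change at cpt-4. This gene, on chromosome V at 5023706 to 5027723 (WBcel235, minus strand), was at 48, 26 and 40 in labelled stt-3 RNAi worms on PA14 and 2, 1 and 3 on E. coli. The control RNAi values of cpt-4 were 44, 21 and 38 on PA14 and 1, 2 and 0 on E. coli. It was near 0 in all 6 E. coli libraries and at 21 or more in all 6 PA14 libraries, with log2 fold changes of 3.71 in worms labelled stt-3 RNAi (standard error 0.45, adjusted p = 0.000144) and 4.22 in control RNAi worms (standard error 0.45, adjusted p = 5.70e-05). The gene met the value minimum only through the PA14 libraries, so its high values there are partly set by the choice of genes. Because the E. coli values were so low, the fold depended on the pseudocount. The control RNAi change lay between 2.2 and 4.75 over the alternatives. The relative cpt-6 was at 36, 30 and 27 on PA14 and 19, 15 and 22 on E. coli in worms labelled stt-3 RNAi, a rise under 2-fold (0.71, adjusted p = 0.0111). Control RNAi worms had cpt-6 at 39, 34 and 42 on PA14 and 15, 12 and 17 on E. coli, and there it was called (1.34, adjusted p = 0.000195).

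The genes cpt-1 and cpt-2, homologues of the transferases of the outer and inner mitochondrial membrane, differed by less than 2-fold. In worms labelled stt-3 RNAi their log2 fold changes on PA14 were 0.16 for cpt-1 and 0.09 for cpt-2, neither past the threshold. The control RNAi values were 0.61 for cpt-1, a rise of less than 2-fold (adjusted p = 0.0355), and 0.18 for cpt-2 (adjusted p = 0.13). The gene cpt-5 was called lower on PA14 in worms labelled stt-3 RNAi, at 24, 17 and 16 on PA14 and 45, 48 and 27 on E. coli (-1.01, adjusted p = 0.0108), a change at the 2-fold limit that was not called without PA14 replicate 2 or 3 or E. coli replicate 1 or 2 of that group (-0.95, -0.91, -0.91 and -0.87 in that order). Control RNAi worms had cpt-5 at 54, 39 and 53 on PA14 and 82, 54 and 48 on E. coli, and those groups overlapped (-0.30, adjusted p = 0.369).

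**Figure D2:**
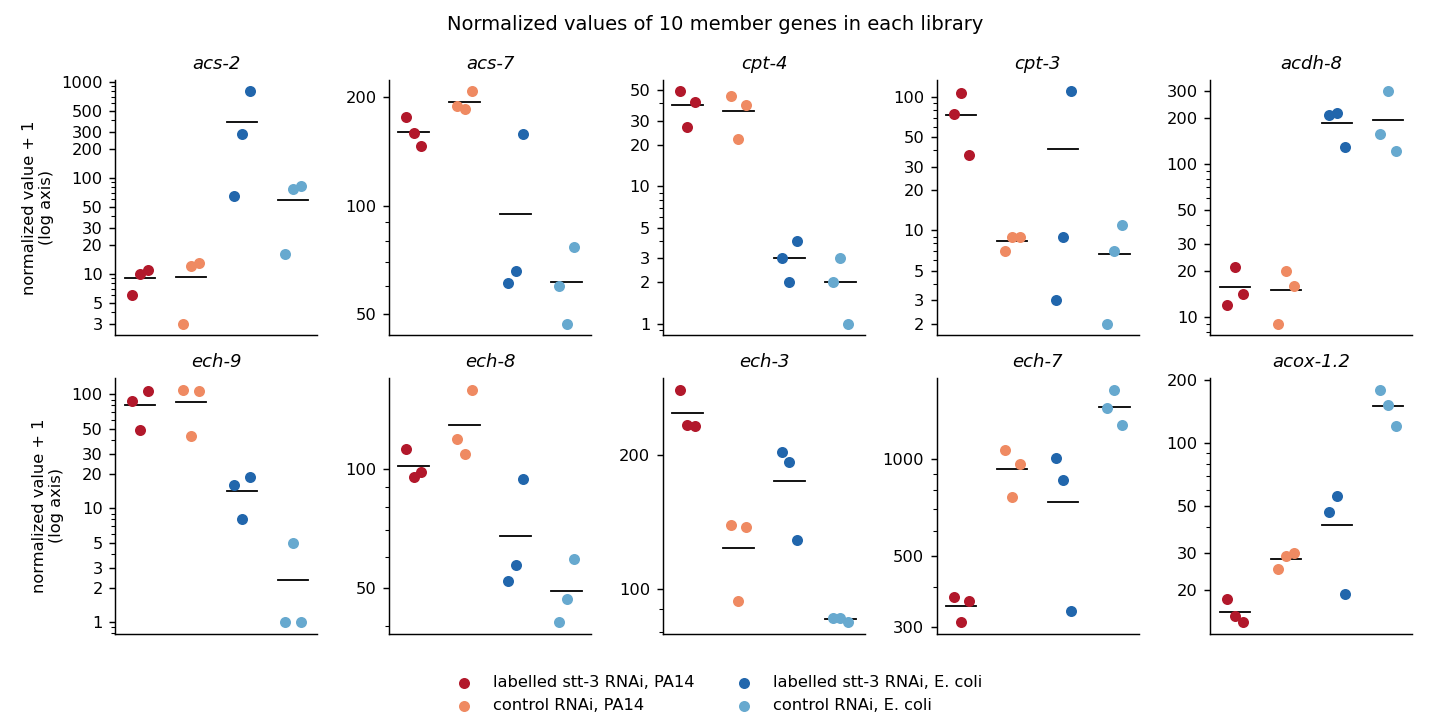
Normalized value plus 1 (log axis, with its own range in each panel) of 10 genes in each of the 12 libraries, with groups from left to right as labelled stt-3 RNAi on PA14, control RNAi on PA14, labelled stt-3 RNAi on E. coli and control RNAi on E. coli; points are libraries and bars are means of 3. The genes cpt-4 and ech-9 are high in all 6 PA14 libraries, acdh-8 and acs-2 are low there, and replicate 3 of labelled stt-3 RNAi on E. coli lies away from its fellows for acs-7, cpt-3, ech-7 and acox-1.2.

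At the dehydrogenase step 3 of 11 genes were called lower on PA14 in each RNAi group and none was called higher. The largest change was that of acdh-8 (chromosome II, 5794495 to 5796185, plus strand), at 11, 20 and 13 in labelled stt-3 RNAi worms on PA14 and 206, 214 and 127 on E. coli. Under control RNAi acdh-8 was at 8, 19 and 15 on PA14 and 156, 296 and 121 on E. coli. Every PA14 library was far below every E. coli library, with log2 fold changes of -3.55 in worms labelled stt-3 RNAi (standard error 0.39, adjusted p = 0.000118) and -3.65 in control RNAi worms (standard error 0.39, adjusted p = 5.67e-05). The gene acdh-5 was at 6, 6 and 5 on PA14 and 53, 57 and 26 on E. coli in worms labelled stt-3 RNAi, and at 3, 6 and 6 on PA14 and 32, 73 and 30 on E. coli in control RNAi worms. Its log2 fold changes were -2.72 in worms labelled stt-3 RNAi and -2.86 in control RNAi worms. It met the value minimum only through the E. coli libraries. The gene acdh-4 was called lower in both groups too, with log2 fold changes of -1.87 in worms labelled stt-3 RNAi and -1.67 in control RNAi worms.

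The remaining dehydrogenase genes changed by less than 2-fold or did not pass the threshold. Homologues of medium-chain acyl-CoA dehydrogenase, acdh-7 and acdh-10, lie 114 bases apart on chromosome X. On PA14 acdh-10 was higher by 0.44 in worms labelled stt-3 RNAi (adjusted p = 0.0169) and by 0.87 in control RNAi worms (adjusted p = 0.000239). The value of acdh-7 was 0.33 in worms labelled stt-3 RNAi (adjusted p = 0.0672), and it was higher by 0.83 in control RNAi worms (adjusted p = 0.00043). These were chosen for naming after their values were seen, as were all genes here that are neither called nor among the genes named whatever their values. The values of acdh-6 were low and scattered, at 10, 4 and 3 on PA14 and 11, 10 and 4 on E. coli in worms labelled stt-3 RNAi (-0.53, adjusted p = 0.485) and 13, 7 and 2 on PA14 and 12, 15 and 13 on E. coli in control RNAi worms (-1.04, adjusted p = 0.15), and it was called lower in control RNAi worms only without control RNAi PA14 replicate 1 (-1.54, adjusted p = 0.0452). The homologue of very long-chain acyl-CoA dehydrogenase, acdh-12, had log2 fold changes of -0.06 in worms labelled stt-3 RNAi and -0.13 in control RNAi worms, neither past the threshold. The gene acdh-13 was lower on PA14 by less than 2-fold, with log2 fold changes of -0.36 in worms labelled stt-3 RNAi (adjusted p = 0.011) and -0.54 in control RNAi worms (adjusted p = 0.000915).

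Of the 10 genes called lower on PA14 in both RNAi groups, 8 had the same order as the summed msp value among the control RNAi E. coli libraries, where msp was at 86370, 168502 and 68281 in replicates 1 to 3. These were acdh-4, acdh-5, acdh-8, acs-6, acs-10, acs-15, acs-18 and acox-1.4, each highest in replicate 2 and lowest in replicate 3, and the other two were acox-1.2 and acs-2. Among the labelled stt-3 RNAi E. coli libraries 9 of the 10, all but acs-2, were lowest in replicate 3, as was the summed msp value (133292, 132489 and 76864). The spread of acox-1.4 was smaller than that of msp, with control RNAi E. coli replicate 2 at 1.11 times replicate 1 and 1.38 times replicate 3. For the other 7 that shared the order, the ratio of replicate 2 to replicate 1 was between 1.90 and 2.28, beside 1.95 for msp, and the ratio of replicate 2 to replicate 3 was between 2.16 and 2.78, beside 2.47 for msp. The order is not particular to sperm genes. The main axis of variation over all tested features had it too, at 78.7, 106 and 65.6 in control RNAi E. coli replicates 1 to 3. So did the epidermis marker col-19 (20714, 29676 and 20344), but not the epidermis markers dpy-7 and elt-3. Of the intestine markers, act-5 (3823, 5338 and 3351) and elt-2 (32, 36 and 25) had the order too. The intestine markers ges-1 (88, 86 and 93), ifb-2 and vit-6 did not. The share of all tested features with this order was not counted. The part of sperm RNA in the fall of these genes was not tested. In these whole-worm samples, fewer cells of a type and less RNA per cell cannot be told apart.

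**Figure D3:**
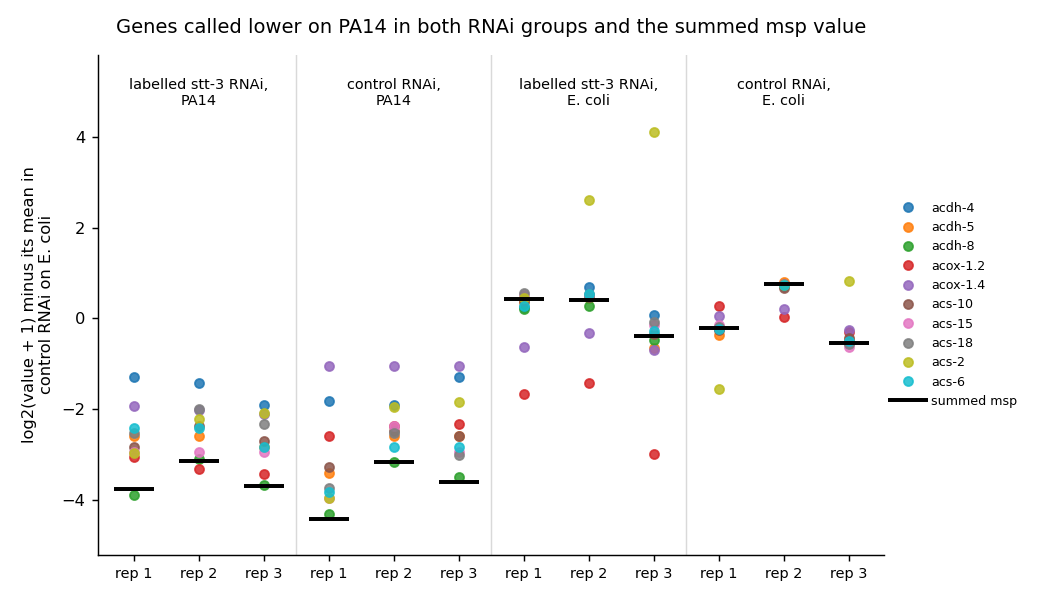
For each of the 12 libraries, log2(value + 1) of the 10 genes called lower on PA14 in both RNAi groups (points) and of the summed value of the 30 msp genes (black bars), each minus its own mean in control RNAi on E. coli; libraries run by condition and replicate. All 11 measures lie below 0 in the PA14 libraries, where acdh-8 is the closest to msp, and in the E. coli libraries acs-2 and acox-1.2 lie farthest from the msp bars.

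Among the hydratase genes, ech-9 had the largest rise of all 56 genes in control RNAi worms. It lies on chromosome IV at 10233310 to 10235329, 1296 bases from ech-8 on the same strand, and both encode proteins related to the bifunctional enzyme of peroxisomes. The values of ech-9 were 86, 48 and 107 in labelled stt-3 RNAi worms on PA14 and 15, 7 and 18 on E. coli (log2 fold change 2.52, standard error 0.64, adjusted p = 0.00865). In control RNAi worms they were 109, 42 and 106 on PA14 and 0, 4 and 0 on E. coli (log2 fold change 5.54, standard error 0.64, adjusted p = 7.08e-05). All 6 PA14 libraries were above all 6 E. coli libraries, though without the PA14 libraries ech-9 would not have met the value minimum. Since 2 control RNAi E. coli libraries were listed at 0, the control RNAi change depended on the pseudocount, between 3.25 and 6.32 over the alternatives. The neighbour ech-8 was at 111, 94 and 97 on PA14 and 51, 56 and 93 on E. coli in worms labelled stt-3 RNAi, a rise under 2-fold (0.63, adjusted p = 0.0433) with replicate 3 on E. coli close to the PA14 values. Under control RNAi ech-8 was at 118, 108 and 157 on PA14 and 40, 46 and 58 on E. coli (1.39, adjusted p = 0.000491). Reads from related neighbours such as these can be shared between them, so the split between the 2 genes is uncertain, and another annotated gene overlaps ech-9 on its own strand.

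The alpha subunit of the mitochondrial trifunctional protein has homologues in ech-1.1 and ech-1.2. The PA14 change of ech-1.1 was -0.46 on the log2 scale in worms labelled stt-3 RNAi and 0.44 in control RNAi worms, and that of ech-1.2 was -0.18 and -0.07 in the same order. None of these passed the threshold. On PA14 ech-5 was lower by less than 2-fold, at -0.29 in worms labelled stt-3 RNAi (adjusted p = 0.0419) and -0.53 in control RNAi worms (adjusted p = 0.00164). The value of ech-2 was -0.18 in worms labelled stt-3 RNAi (adjusted p = 0.158) and -0.53 in control RNAi worms, where it passed the threshold (adjusted p = 0.00114).

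In the peroxisomal route the acyl-CoA oxidase genes were split on PA14. Members acox-1.1 to acox-1.4 lie in tandem on chromosome I between 12938555 and 12954003 on the plus strand, with 52, 343 and 34 bases between neighbours, and encode oxidases that are known to work as pairs in ascaroside synthesis. Values of acox-1.2 were 17, 14 and 13 on PA14 and 46, 55 and 18 on E. coli in worms labelled stt-3 RNAi (-1.24, standard error 0.34, adjusted p = 0.012), and 24, 28 and 29 on PA14 and 179, 151 and 120 on E. coli in control RNAi worms (-2.42, standard error 0.34, adjusted p = 0.000178). Its PA14 values lay below its E. coli values in both groups, narrowly so for replicate 3 of labelled stt-3 RNAi, without which the change in that group was -1.72. Without replicate 2 of labelled stt-3 RNAi on E. coli acox-1.2 was not called in that group (-0.94, adjusted p = 0.0535). The gene acox-1.4 was called lower in both groups, with log2 fold changes of -1.47 in worms labelled stt-3 RNAi and -1.06 in control RNAi worms. The control RNAi call of acox-1.4, close to the 2-fold limit, was lost without control RNAi E. coli replicate 2 (-0.96). The gene acox-1.3 was called lower in worms labelled stt-3 RNAi (-1.65, adjusted p = 9.84e-05) and was lower by less than 2-fold in control RNAi worms (-0.83, adjusted p = 0.00169). The gene acox-1.1 did not pass the threshold in either group (-0.29 in worms labelled stt-3 RNAi and -0.00 in control RNAi worms).

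On chromosome III, acox-1.5 went the other way. In worms labelled stt-3 RNAi it was at 179, 127 and 181 on PA14 and 141, 96 and 79 on E. coli, where the groups overlapped (0.64, adjusted p = 0.0806). Control RNAi worms had acox-1.5 at 281, 183 and 286 on PA14 and 64, 113 and 73 on E. coli, and there it was called (1.59, standard error 0.27, adjusted p = 0.000689). The steps after the oxidase are catalysed by the hydratase MAOC-1, the dehydrogenase DHS-28 and the thiolase DAF-22. On PA14 their log2 fold changes in worms labelled stt-3 RNAi were 0.10 for dhs-28, -0.23 for daf-22 and -0.21 for maoc-1, none past the threshold. The control RNAi values were 0.64 for dhs-28 (adjusted p = 0.000895), 0.54 for daf-22 (adjusted p = 0.0169) and 0.44 for maoc-1 (adjusted p = 0.0732).

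Libraries labelled stt-3 RNAi were then compared with control RNAi libraries on each food. On PA14 1 of the 56 genes was called higher and 4 lower, beside 1.98% of all tested features called higher and 3.33% called lower, with a median log2 fold change of -0.09 for the 56 and 0.05 for all features. With median-of-ratios scaling the PA14 split was 0 higher and 4 lower. On E. coli 2 were called higher and 1 lower, beside 1.98% of all tested features called higher and 1.23% lower, with a median of 0.13 for the 56 and 0.02 for all features. The gene called higher on both foods was ech-3, and no gene was called lower on both. The share of all tested features called on both foods was not counted. On PA14 5 further genes were lower with an adjusted p under 0.05 and a change under 2-fold, and on E. coli 2 were higher and 4 lower. The remaining 46 on PA14 and 47 on E. coli did not pass the p threshold. With the called genes, 17.9% of the 56 passed it on PA14, beside 10.5% of all tested features. On E. coli 16.1% of the 56 passed it, beside 6.41% of all tested features. The 5 intestine markers summed to 17428 to 21987 in worms labelled stt-3 RNAi on PA14 and 27821 to 47123 in control RNAi worms on PA14, and 1 of the 5 was called lower. On E. coli their sums were 18613 to 21661 in worms labelled stt-3 RNAi and 22491 to 26095 in control RNAi worms, with none called. Most of each sum was vit-6, at 15109 to 19138 in worms labelled stt-3 RNAi and 21952 to 39389 in control RNAi worms on PA14. On PA14 the log2 fold changes were -0.83 for vit-6, -2.01 for ifb-2, -1.28 for act-5, -0.26 for elt-2 and 0.03 for ges-1. Of these, only vit-6 and ifb-2 passed the adjusted p threshold. The part of these markers in the results on PA14 was not tested.

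The shared rise was that of ech-3 (chromosome V, 8022217 to 8023317, plus strand). On PA14 it was at 280, 233 and 232 in worms labelled stt-3 RNAi and 138, 93 and 137 in control RNAi worms. On E. coli it was at 202, 192 and 128 in worms labelled stt-3 RNAi and 85, 85 and 83 in control RNAi worms. The groups did not overlap on either food, and the log2 fold changes were 1.03 on PA14 (standard error 0.19, adjusted p = 0.00551) and 1.01 on E. coli (standard error 0.19, adjusted p = 0.0111). Both sit close to the 2-fold limit, and the call on PA14 was lost without labelled stt-3 RNAi replicate 1 or control RNAi replicate 2 on PA14 (0.94 and 0.84). The call on E. coli was lost without labelled stt-3 RNAi replicate 1 or 2 or control RNAi replicate 3 on E. coli (0.89, 0.92 and 1.0). A gene on the opposite strand overlaps ech-3, and because the library kit does not mark strand their reads cannot be told apart.

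The largest fall on PA14 was that of ech-7 (chromosome I, 14367616 to 14369773, minus strand). It was at 372, 310 and 361 in worms labelled stt-3 RNAi on PA14 and 1069, 765 and 964 in control RNAi worms on PA14 (log2 fold change -1.41, standard error 0.33, adjusted p = 0.0198), with no overlap. Leaving out any of the 3 labelled stt-3 RNAi PA14 libraries, or control RNAi PA14 replicate 1 or 3, took the adjusted p of ech-7 past 0.05 (0.0536 to 0.0785) with log2 fold changes of -1.46 to -1.31. On E. coli ech-7 was at 1007, 863 and 335 in worms labelled stt-3 RNAi and 1446, 1647 and 1275 in control RNAi worms, again without overlap. That difference did not pass the threshold (-1.13, adjusted p = 0.0731), and it was -0.63 without labelled stt-3 RNAi replicate 3 on E. coli (adjusted p = 0.048) and was called without labelled stt-3 RNAi replicate 1 on E. coli (-1.43, adjusted p = 0.0421). Per kilobase of exon ech-7 had the highest level of the 56 genes in control RNAi worms, with a mean normalized value of 1200 on PA14 and 1880 on E. coli.

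Activation and entry each had a gene called lower on PA14. The gene acs-5 was at 69, 65 and 60 in worms labelled stt-3 RNAi on PA14 and 130, 133 and 136 in control RNAi worms on PA14 (log2 fold change -1.03, standard error 0.14, adjusted p = 0.000914), and -0.98 without labelled stt-3 RNAi PA14 replicate 3, which ended the call. On E. coli acs-5 was at 104, 143 and 137 in worms labelled stt-3 RNAi and 225, 306 and 233 in control RNAi worms (-0.99, adjusted p = 0.003), which lay just under the 2-fold limit. It passed that limit without labelled stt-3 RNAi replicate 2 or 3 or control RNAi replicate 1 or 3 on E. coli (-1.07, -1.04, -1.07 and -1.04). The groups of acs-5 stood apart on both foods by about the same amount. The gene cpt-5 was at 24, 17 and 16 in worms labelled stt-3 RNAi on PA14 and 54, 39 and 53 in control RNAi worms on PA14 (-1.32, standard error 0.27, adjusted p = 0.00992). On E. coli cpt-5 was at 45, 48 and 27 in worms labelled stt-3 RNAi and 82, 54 and 48 in control RNAi worms, a difference that did not pass the threshold (-0.61, adjusted p = 0.231).

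The acyl-CoA oxidase genes had the lowest median of the enzyme classes in this comparison, -0.84 on PA14 and -0.54 on E. coli. On PA14 all 7 log2 fold changes were below 0, also after median-of-ratios scaling and quantile normalization, beside 41.9% of all tested features below 0. Of the 7, 3 passed the adjusted p threshold, beside 10.5% of all tested features. Values of acox-1.3 on PA14 were 6, 9 and 7 in worms labelled stt-3 RNAi and 20, 23 and 19 in control RNAi worms (-1.39, standard error 0.16, adjusted p = 0.000323). On E. coli acox-1.3 was at 27, 23 and 25 in worms labelled stt-3 RNAi and 40, 36 and 36 in control RNAi worms (-0.56, adjusted p = 0.0734). Both pairs of groups were separate. The gene acox-1.4 was lower on PA14 by less than 2-fold, at 16, 15 and 14 in worms labelled stt-3 RNAi and 30 in each control RNAi library (-0.96, adjusted p = 0.00195), and at -1.0 it was called without labelled stt-3 RNAi PA14 replicate 1.

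In the tandem cluster the largest fall on PA14 was that of acox-1.3 and the largest on E. coli that of acox-1.2. On E. coli acox-1.2 was at 46, 55 and 18 in worms labelled stt-3 RNAi and 179, 151 and 120 in control RNAi worms (-2.02, standard error 0.34, adjusted p = 0.00641), and without replicate 3 of labelled stt-3 RNAi on E. coli it was -1.54 (adjusted p = 0.0014). On PA14 acox-1.2 was at 17, 14 and 13 in worms labelled stt-3 RNAi and 24, 28 and 29 in control RNAi worms, with no overlap but with an adjusted p of 0.166 (-0.84). The difference between foods in its RNAi change was not detected (1.17, adjusted p = 0.319). The gene acox-1.1 was lower on both foods by less than 2-fold. It was at 82, 69 and 64 in worms labelled stt-3 RNAi on PA14 and 120, 121 and 159 in control RNAi worms on PA14 (-0.88, adjusted p = 0.00118), and at 87, 90 and 86 in worms labelled stt-3 RNAi on E. coli and 136, 137 and 124 in control RNAi worms on E. coli (-0.59, adjusted p = 0.0207). The 4 tandem genes are close relatives, so reads may be shared between them, and acox-1.4 is overlapped by a gene on the other strand. Outside the cluster acox-1.5, acox-1.6 and acox-3 did not pass the threshold on either food.

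**Figure D4:**
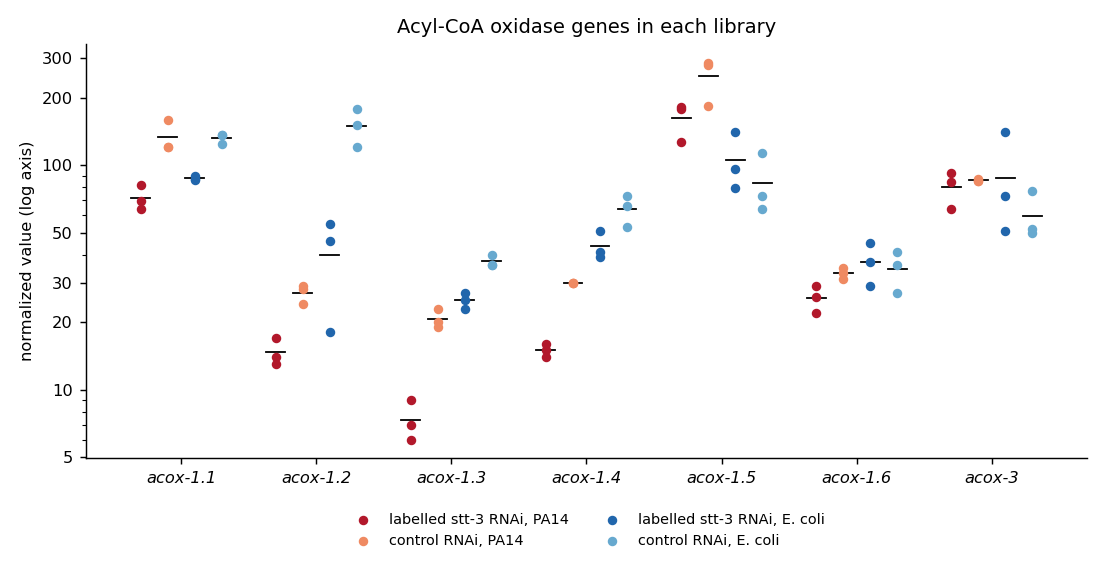
Normalized values (log axis) of the 7 acyl-CoA oxidase genes in each of the 12 libraries; within a gene the groups run from left to right as labelled stt-3 RNAi on PA14, control RNAi on PA14, labelled stt-3 RNAi on E. coli and control RNAi on E. coli, points are libraries and bars are means of 3. On PA14 the values of acox-1.1 to acox-1.4 lie lower in libraries labelled stt-3 RNAi than in the control libraries with no overlap, and on E. coli the widest gap is that of acox-1.2. The share of all tested features without overlap was not counted, and on PA14 the difference of acox-1.2 did not pass the adjusted p threshold.

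Of the later peroxisomal genes, dhs-28 was lower after the labelled RNAi on PA14, at 999, 922 and 958 in worms labelled stt-3 RNAi and at 1328, 1147 and 1514 in control RNAi worms on PA14 (-0.46, standard error 0.12, adjusted p = 0.0274). Values of daf-22 on PA14 were 384, 351 and 319 in worms labelled stt-3 RNAi and 464, 507 and 564 in control RNAi worms (-0.54, adjusted p = 0.0626). Values of maoc-1 on PA14 were 475, 403 and 331 in worms labelled stt-3 RNAi and 584, 541 and 590 in control RNAi worms (-0.52, adjusted p = 0.127). The groups of all 3 genes were separate on PA14, but the share of all tested features with separate groups was not counted. Only dhs-28 passed the threshold there. On E. coli their log2 fold changes were 0.08 for dhs-28, 0.23 for daf-22 and 0.14 for maoc-1, none past the threshold, and their groups overlapped.

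The other gene called higher on E. coli was ech-9, at 15, 7 and 18 in worms labelled stt-3 RNAi on E. coli and 0, 4 and 0 in control RNAi worms on E. coli (2.98, standard error 0.64, adjusted p = 0.0209). This call was lost without labelled stt-3 RNAi replicate 1 or 3 or control RNAi replicate 1 or 3 on E. coli, with log2 fold changes of 2.59 to 2.85 and adjusted p between 0.0666 and 0.0876. On PA14 ech-9 had a log2 fold change of -0.05. The gene acs-2 was at 63, 284 and 799 in worms labelled stt-3 RNAi on E. coli and 15, 76 and 81 in control RNAi worms on E. coli, groups that overlapped and a difference that did not pass the threshold (2.39, standard error 0.93, adjusted p = 0.17). On PA14 its log2 fold change was 0.17.

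One further gene, cpt-3, was singled out after its values were seen. It would not have met the value minimum without the PA14 libraries labelled stt-3 RNAi, where it was high. On PA14 it was at 73, 106 and 36 in worms labelled stt-3 RNAi and 6, 8 and 8 in control RNAi worms, and on E. coli it was at 2, 8 and 109 in worms labelled stt-3 RNAi and 1, 6 and 10 in control RNAi worms. The PA14 groups were far apart, but the wide spread on E. coli entered the shared estimate of error and the difference on PA14 did not pass the threshold (3.00, standard error 1.09, adjusted p = 0.123). Without replicate 3 of labelled stt-3 RNAi on E. coli the PA14 difference of cpt-3 was called at the same size (standard error 0.65, adjusted p = 0.0125), and with only the PA14 libraries in the fit its adjusted p was 0.00526. Both refits use the PA14 values for which cpt-3 was singled out and met the value minimum. They are therefore no separate support for a difference.

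**Figure D5:**
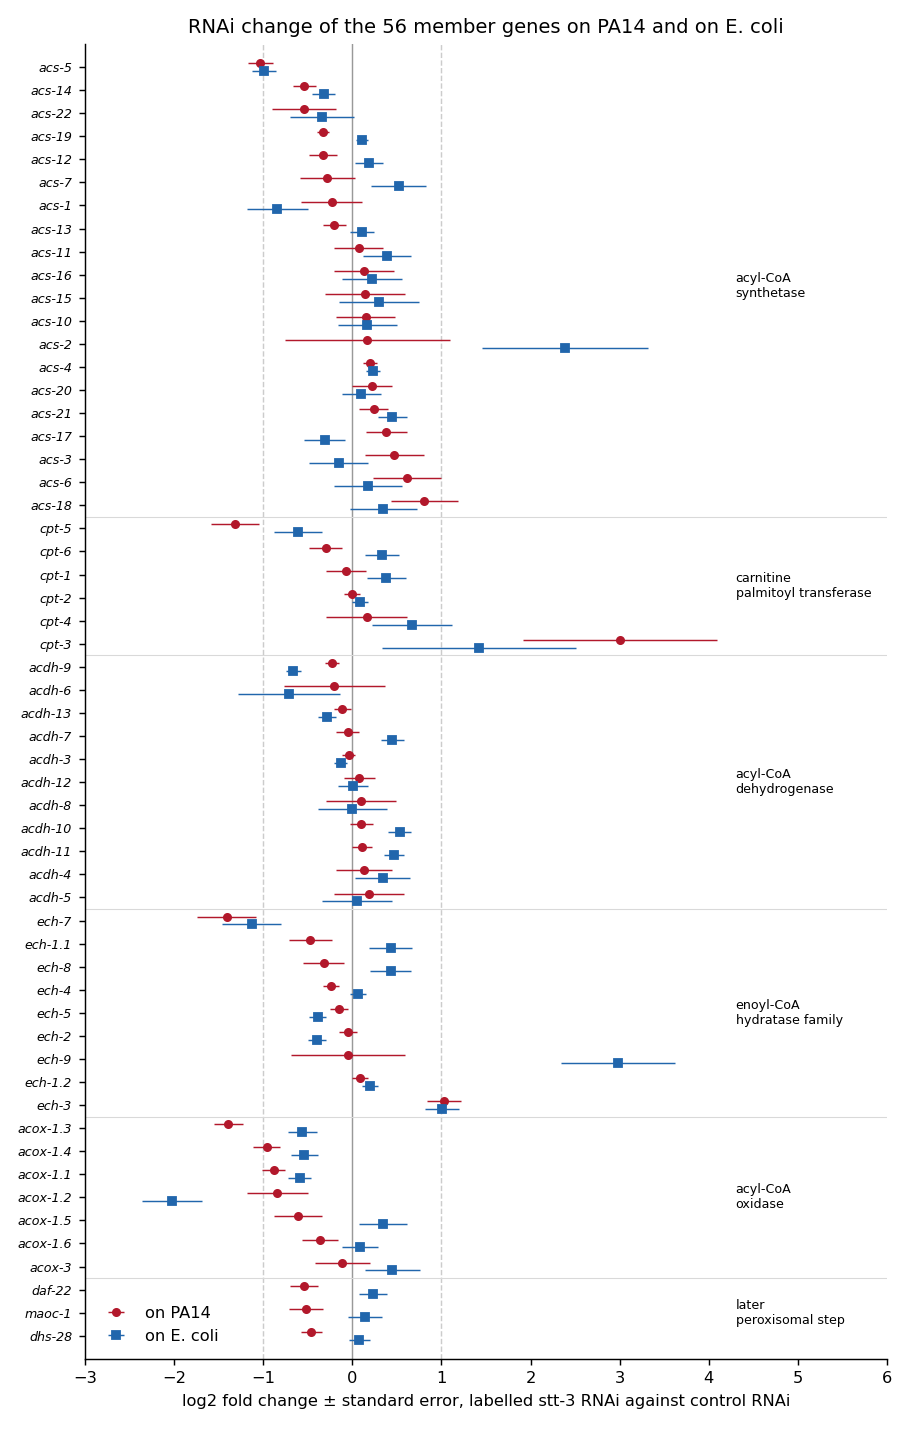
Log2 fold change of labelled stt-3 RNAi against control RNAi for each of the 56 genes, on PA14 (red circles) and on E. coli (blue squares), with bars of 1 standard error, dashed lines at 2-fold, and genes grouped by enzyme class and sorted by the PA14 value. The gene ech-3 lies near 1 on both foods, all 7 acyl-CoA oxidase genes lie below 0 on PA14, and ech-9 and acs-2 lie to the right on E. coli and near 0 on PA14.

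The remaining genes named whatever their values differed little between RNAi groups. On PA14 acs-19 was lower in worms labelled stt-3 RNAi by less than 2-fold (-0.33, adjusted p = 0.0152). No difference between RNAi groups passed the threshold on either food for acs-20, acs-22, cpt-1, cpt-2, acdh-12, acdh-13, ech-1.1 and ech-1.2, whose log2 fold changes lay between -0.54 (acs-22, PA14) and 0.43 (ech-1.1, E. coli). On E. coli acdh-9 was lower in worms labelled stt-3 RNAi (-0.66, adjusted p = 0.00113) and acdh-10 (0.53, adjusted p = 0.0325) and acdh-11 (0.47, adjusted p = 0.0257) were higher, each by less than 2-fold. The protein ACDH-11 is known to bind fatty acids in the worm's adaptation to heat. On PA14 the differences of these 3 were -0.23 for acdh-9, 0.10 for acdh-10 and 0.11 for acdh-11, none past the threshold.

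Whether the PA14 change itself differed between RNAi groups was tested as the PA14 change in worms labelled stt-3 RNAi minus that in control RNAi worms. None of the 56 genes was called in either direction by limma, beside 0.232% of all tested features called higher and 1.18% called lower, and 18 of the 56 had an unadjusted p under 0.05, beside 12.7% of all tested features (1644 of 12908). Among the intestine markers the difference was called for ifb-2 (-1.82, adjusted p = 0.00758), and the part of that tissue here was not tested. The median difference over the 56 was -0.21, beside 0.05 for all features, with 38 genes below 0 and 18 above. A lower PA14 change in worms labelled stt-3 RNAi was largest for ech-9 (-3.02, standard error 0.91, adjusted p = 0.15), which was called without control RNAi E. coli replicate 2 (-3.79, adjusted p = 0.0297). Differences for the later peroxisomal genes were -0.77 for daf-22 (adjusted p = 0.147), -0.54 for dhs-28 (adjusted p = 0.157) and -0.65 for maoc-1 (adjusted p = 0.328). The lowest adjusted p was that of acs-19 (-0.44, adjusted p = 0.0677). A call in 1 RNAi group and not in the other, as for acs-7, acs-3, cpt-5, cpt-6, ech-8, acox-1.3 and acox-1.5, was therefore not a detected difference between the groups.

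Other genes of these pathways were taken from a list of 37, of which 36 were matched and tested. In worms labelled stt-3 RNAi PA14 raised 0 and lowered 2 of them, beside 8.30% of all tested features called higher and 14% lower. In control RNAi worms it raised 2 and lowered 2 of the 36, beside 10.7% called higher and 15.9% lower, and each of the 4 counts was a smaller share than that over all features. Lower in both groups were F54C8.1 and pmp-5. The gene F54C8.1, annotated among the hydroxyacyl-CoA dehydrogenases, was at -2.72 in worms labelled stt-3 RNAi and -3.28 in control RNAi worms. The gene pmp-5, placed by its symbol among the peroxisomal membrane genes of the list, was at -1.93 and -2.47 in the same order. Whether its protein acts in peroxisomes was not tested. Among the control RNAi E. coli libraries F54C8.1 had the same order as the summed msp value, with replicate 2 at 2.06 times replicate 1 and 2.69 times replicate 3. Raised by PA14 in control RNAi worms were prx-11, a peroxisome biogenesis gene (1.15, adjusted p = 0.000145), and ctl-2, the peroxisomal catalase (1.4, adjusted p = 0.0108). Against control RNAi, worms labelled stt-3 RNAi had lower pmp-5 on PA14 (-1.44, adjusted p = 0.00804) and on E. coli (-1.99, adjusted p = 0.00284), and on E. coli higher prx-6, another peroxisome biogenesis gene (1.09, adjusted p = 0.00197).

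Values of pmp-5 showed both effects at once. They were 8, 6 and 5 in labelled stt-3 RNAi worms on PA14, 20, 18 and 18 in control RNAi worms on PA14, 22, 42 and 20 in labelled stt-3 RNAi worms on E. coli, and 123, 128 and 80 in control RNAi worms on E. coli. The 3-ketoacyl-CoA thiolase gene kat-1 was lower on PA14 by less than 2-fold, with log2 fold changes of -0.49 in worms labelled stt-3 RNAi (adjusted p = 0.000528) and -0.62 in control RNAi worms (adjusted p = 9.64e-05). Against control RNAi, kat-1 was also lower in worms labelled stt-3 RNAi, on PA14 (-0.29, adjusted p = 0.039) and on E. coli (-0.42, adjusted p = 0.0105). None of the 8 regulators on the list was called in any of the 4 comparisons. The log2 fold change of nhr-49 on PA14 was 0.26 in worms labelled stt-3 RNAi (adjusted p = 0.0453) and 0.21 in control RNAi worms (adjusted p = 0.0787), and that of its coactivator gene mdt-15 was -0.06 in worms labelled stt-3 RNAi and 0.09 in control RNAi worms. For prx-5, the receptor for peroxisomal protein import, it was 0.10 in both RNAi groups, and neither mdt-15 nor prx-5 passed the threshold in any of the 4 comparisons.

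Over all 5 tests 22 of the 56 genes were called at least once and 34 were not, beside 31.7% of all tested features called at least once (4096 of 12908). In the labelled stt-3 RNAi libraries on PA14 the highest level per kilobase of exon was that of dhs-28, a mean normalized value of 681, and in control RNAi worms on PA14 that of dhs-28 was 944. At the other end acs-15 had a mean normalized value per kilobase of 0.469 in both PA14 groups. Of the 3 symbols below the value minimum, acdh-2 was at 5, 6 and 4 in control RNAi worms on E. coli and listed at 0 in the other 9 libraries, acs-24 was at 3 or less and acs-9 at 2 or less in every library.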

How the data were processed

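The deposited gene values carry the heading count but are a score. According to the methods, the authors aligned reads with HISAT2 to WBcel235, assembled them with StringTie, normalized gene values by the upper quartile and with RUVSeq on control genes, and the files hold them rounded to whole numbers (upper quartile 161 to 164 in every library). RUVSeq removes variation that control genes share, which can also move group differences. The authors' own tests were not used. Features with a value of at least 10 in 3 or more of 12 libraries were tested with limma 3.58.1 (R 4.3.3; trend on log2(value + 1), 1 mean per condition, all 12 libraries). Fold changes on this scale understate changes of low genes. Genes were called at over 2-fold and adjusted p under 0.05. The script was checked on simulated data. Symbols and coordinates came from a WBcel235 annotation (16626 of 17430 features matched). Members and lists were chosen with earlier results of these data known. Named genes were every called member plus acs-2, acs-19, acs-20, acs-22, cpt-1, cpt-2, acdh-12, acdh-13, ech-1.1, ech-1.2, acox-1.1, maoc-1, dhs-28 and daf-22. On PA14, between the RNAi groups, deviations of libraries with the same replicate number, taken from the titles, correlated at 0.53, 0.26 and 0.39. Libraries with different numbers correlated there at -0.53 to 0.21. The numbers may therefore pair the libraries there, but the labels state no pairing. Alternatives were other filters, pseudocounts, scalings, fits and thresholds and leaving out each library. Sequence features were not analysed here.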

Additional observations from a re-analysis of the deposited data

How the results depend on the processing

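No call of a named gene changed direction under any alternative that was run. Requiring a mean value of at least 50 left fewer genes tested. With it the members called on PA14 in worms labelled stt-3 RNAi were 0 higher and 3 lower, and in control RNAi worms 3 higher and 3 lower. With it labelled stt-3 RNAi against control RNAi gave 2 lower on PA14 and 1 higher on E. coli. A test against the 2-fold limit itself, which is stricter by construction, left 1 higher on PA14 in worms labelled stt-3 RNAi and 2 higher in control RNAi worms. Of the genes called lower on PA14, acdh-5, acdh-8, acs-6, acs-10, acs-15 and acs-18 stayed called in both RNAi groups. This held under that test and every other alternative in which they were tested. Others, such as acdh-4, lost the call under some alternative. For labelled stt-3 RNAi against control RNAi that test left 0 higher and 0 lower on both foods. A pseudocount of 8 left 0 higher and 2 lower for that comparison on PA14 and 0 higher on E. coli. With only the groups compared in the fit the counts were 2 higher on PA14, and 0 higher and 0 lower on E. coli. Median-of-ratios scaling gave 0 higher on PA14. The causes were not tested beyond what each setting removes.

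Leaving out each library in turn gave 3 to 6 members higher on PA14 in worms labelled stt-3 RNAi. The 6 came without replicate 3 of labelled stt-3 RNAi on E. coli, when acs-7 (1.34), acs-22 (1.03) and cpt-3 (3.68) were added, and ech-7 (-1.42) joined the lower genes, 13 in place of 12. For labelled stt-3 RNAi against control RNAi it gave 0 to 2 higher and 2 to 4 lower on PA14, and 0 to 2 higher and 1 to 2 lower on E. coli. The 2 lower on PA14 came without labelled stt-3 RNAi PA14 replicate 3. For the difference of the PA14 changes it gave 0 to 1 lower.

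With the replicate number as a block the same 5 members were called on PA14 for labelled stt-3 RNAi against control RNAi, 1 higher and 4 lower. The block changed no call there. In the other comparisons the numbers did not meet the check on pairing, with same-number correlations of 0.02 to 0.46 for the RNAi comparison on E. coli, -0.07 to 0.24 for PA14 in worms labelled stt-3 RNAi and 0.06 to 0.18 for PA14 in control RNAi worms. On E. coli the block gave 3 higher in place of 2, with acs-2 added (2.39, adjusted p = 0.0112). Neither read depth nor counting error can be assessed from these values, so differences among genes near 0, such as acs-15, are the least certain.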
